A study of Mus musculus with 4 samples.

Results

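The genes described here encode the proteins of the mitochondrial ribosome, measured in livers of mice from reciprocal crosses. All probe sets that the platform annotation pairs with a single symbol starting with Mrpl (large subunit) or Mrps (small subunit) followed by a digit were taken, which gave 156 probe sets of 76 genes, out of 18193 genes with a singly annotated probe set. Each gene was represented by its probe set of highest mean log2 signal over the 4 arrays. The members comprised 47 Mrpl and 29 Mrps genes, of the 78 protein-coding genes with such symbols in RefSeq. The remaining genes, Mrpl30 and Mrpl53, had only probe sets that also name a second gene. RefSeq places none of the 76 genes on the X or Y chromosome.

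Whole liver slices came from 4 male mice of 9 months, which were fed chow in a specific-pathogen-free facility and received no intervention. For AB6F1 mice the dam was AJ and the sire B6 (n = 2), and for B6AF1 mice the parents were exchanged, the dam being B6 and the sire AJ (n = 2). Both groups therefore carry the same pair of parental autosomal genomes, while mitochondria come from the dam, as does the single X chromosome of a male, and the Y chromosome comes from the sire. The mice are numbered as biological replicates, and with 2 per group an exact permutation test of a single value cannot give a p below 0.333. The source numbers of the mice fall in a separate block for each cross, so cross and any difference in handling cannot be told apart.

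The mitochondrial ribosome translates the few messenger RNAs that the mitochondrial genome encodes, all of them for subunits of the respiratory chain and ATP synthase. Its ribosomal RNAs are transcribed from mitochondrial DNA, which is inherited from the mother, whereas all its proteins are encoded in the nucleus, made in the cytosol and imported. The large subunit joins amino acids and holds the exit tunnel, the small subunit binds the messenger RNA and reads its codons, and many of the proteins have no relative in bacteria. Liver is rich in mitochondria, and its cells depend on the respiratory chain for gluconeogenesis and urea synthesis.

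Promoters of genes of mitochondrial biogenesis are known for matches to NRF1, ETS-family (NRF2/GABP) and YY1 motifs. The promoters of 5 members described below are shown, 4 with lower and 1 with higher signal in AB6F1. All 5 hold a match, and motif content was part of their choice, so they do not stand for the members at large. The sequences run from 250 bases before to 50 bases after the RefSeq start (GRCm38.p6), 5′ to 3′ on the strand of the gene. They are Mrpl39 (chr16:84735195-84735494, minus strand), Mrpl34 (chr8:71464676-71464975, plus strand), Mrps12 (chr7:28741772-28742071, minus strand), Mrps24 (chr11:5707652-5707951, minus strand) and Mrpl33 (chr5:31613701-31614000, plus strand). Capitals mark matches, on either strand, to an NRF1 core (GCATGCGC), an ETS motif (CCGGAAG) or a YY1 motif (AAGATGGC).
Mrpl39: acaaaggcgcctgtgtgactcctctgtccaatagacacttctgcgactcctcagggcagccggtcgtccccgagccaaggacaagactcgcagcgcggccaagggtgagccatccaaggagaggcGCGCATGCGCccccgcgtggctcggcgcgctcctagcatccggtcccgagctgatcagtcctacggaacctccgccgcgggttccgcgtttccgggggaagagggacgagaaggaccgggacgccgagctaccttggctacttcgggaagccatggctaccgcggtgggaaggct
Mrpl34: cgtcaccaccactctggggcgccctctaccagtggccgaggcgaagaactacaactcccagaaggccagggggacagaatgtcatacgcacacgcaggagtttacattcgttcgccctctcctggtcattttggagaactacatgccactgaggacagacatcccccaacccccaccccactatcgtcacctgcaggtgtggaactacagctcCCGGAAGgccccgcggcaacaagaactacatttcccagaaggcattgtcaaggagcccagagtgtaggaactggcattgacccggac
Mrps12: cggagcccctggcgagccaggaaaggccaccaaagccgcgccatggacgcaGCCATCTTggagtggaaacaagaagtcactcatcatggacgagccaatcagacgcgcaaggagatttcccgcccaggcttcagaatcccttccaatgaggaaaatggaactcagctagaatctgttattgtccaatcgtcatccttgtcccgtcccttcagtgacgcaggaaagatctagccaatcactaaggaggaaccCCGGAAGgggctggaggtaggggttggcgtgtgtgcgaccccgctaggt
Mrps24: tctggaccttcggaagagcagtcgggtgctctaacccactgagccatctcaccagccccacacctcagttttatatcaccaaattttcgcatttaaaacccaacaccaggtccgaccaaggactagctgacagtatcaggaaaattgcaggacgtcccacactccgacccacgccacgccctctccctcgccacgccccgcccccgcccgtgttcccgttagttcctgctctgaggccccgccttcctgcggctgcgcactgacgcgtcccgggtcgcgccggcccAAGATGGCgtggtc
Mrpl33: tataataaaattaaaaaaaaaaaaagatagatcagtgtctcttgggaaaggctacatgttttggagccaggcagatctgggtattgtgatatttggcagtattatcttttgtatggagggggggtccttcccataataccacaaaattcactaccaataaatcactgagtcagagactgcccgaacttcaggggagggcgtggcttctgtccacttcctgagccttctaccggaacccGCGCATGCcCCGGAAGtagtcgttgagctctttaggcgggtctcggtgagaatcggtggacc
In Mrpl39 the capitals are NRF1 core matches on both strands that overlap each other, the first starting 125 bases before the start site. Mrpl34 holds an ETS match 37 bases before the start. In Mrps12 a YY1 match on the opposite strand lies 199 bases before the start and an ETS match begins 2 bases after it. Mrps24 holds a YY1 match 37 bases after the start. In Mrpl33 an NRF1 core match on the opposite strand, 12 bases before the start, is followed by an ETS match 3 bases before it.

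The RefSeq promoter table used here held 67 of the 76 members, and had no entry for Mrpl13, Mrpl15, Mrpl19, Mrpl38, Mrpl4, Mrpl54, Mrps28, Mrps34 and Mrps35. An ETS match was present in 24 of the 67 (35.8%), against 17.7% of the 9538 promoters of genes tested and 9.12% of all 27025 promoters. The YY1 motif was found in 12 members (17.9%), against 4.66% of genes tested and 2.88% of all promoters. The NRF1 core was found in 8 members (11.9%), against 5.29% and 2.80%; this short core was chosen after seeing the data. It was in 7 of 41 large-subunit and 1 of 26 small-subunit promoters, and the longer NRF1 form was in 9 and 3. At least 1 of the 3 motifs was present in 36 members (53.7%) and in 25.3% of genes tested. Promoters of 33 cytosolic ribosomal protein genes held any of them in 57.6% and the ETS motif in 48.5%. These are matches of letters and do not show binding. The median log2 difference between the crosses was -0.12 among the members with any of the motifs and -0.11 among those without. Members with and without an ETS match had medians of -0.13 and -0.09, and members with and without the NRF1 core had medians of -0.09 and -0.11. The longer NRF1 form gave -0.14 and -0.11, in the opposite order. The promoters of Mrpl11 and Mrpl55, the 2 members with the most negative differences, held none of the 3 motifs.

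The deposited values are linear array signals, scaled by the authors so that the trimmed mean of every array is 500. The median signal of the 4 arrays was 78.0 and 75.9 in AB6F1 mice against 72.8 and 67.2 in B6AF1 mice, and the number of arrays, rather than any count, limits the precision. Differences are given on the log2 scale as AB6F1 minus B6AF1, with the standard error from limma fitted to 11749 genes, and p-values were adjusted by the Benjamini-Hochberg method over all of these. At an adjusted p of 0.05, limma called 9 genes lower in AB6F1 (0.0766% of those tested) and 16 higher (0.136%). The liver label matched the markers: 8 of 8 measured hepatocyte markers, Alb among them, lay at or above the 97.3 percentile of mean signal.

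All 76 members passed the filter on low signal, and none passed the test in either direction; the smallest adjusted p of a member in limma was 0.384. The difference was negative in 58 of the 76 (76.3%), against 46.5% of all genes tested. The median over members was -0.11 on the log2 scale, a ratio of AB6F1 to B6AF1 of 0.925, and the median over all genes tested was 0.02. The quartiles of the members were -0.18 and -0.01, against -0.15 and 0.25 for all genes tested. Because abundant and scarce genes can differ in their spread, the 4883 genes tested whose mean log2 signal lay within that of the members were also read: their median was -0.02 and 53.9% of them were negative. The scaling matters for the sign of single members: centring each array on its median moved the median of all genes from 0.02 to -0.11 and that of the members from -0.11 to -0.25, with 73 of 76 members then negative. The gap between the members' median and that of all genes was -0.14 as deposited and lay between -0.15 and -0.09 under every setting tried. Of the 8 hepatocyte markers measured, 7 also lay on this side, and the median of the 8 was -0.14. Most markers of macrophages and stellate cells lay on the opposite side, as given below. The part of these markers in the members' values was not tested.

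**Figure D1:**
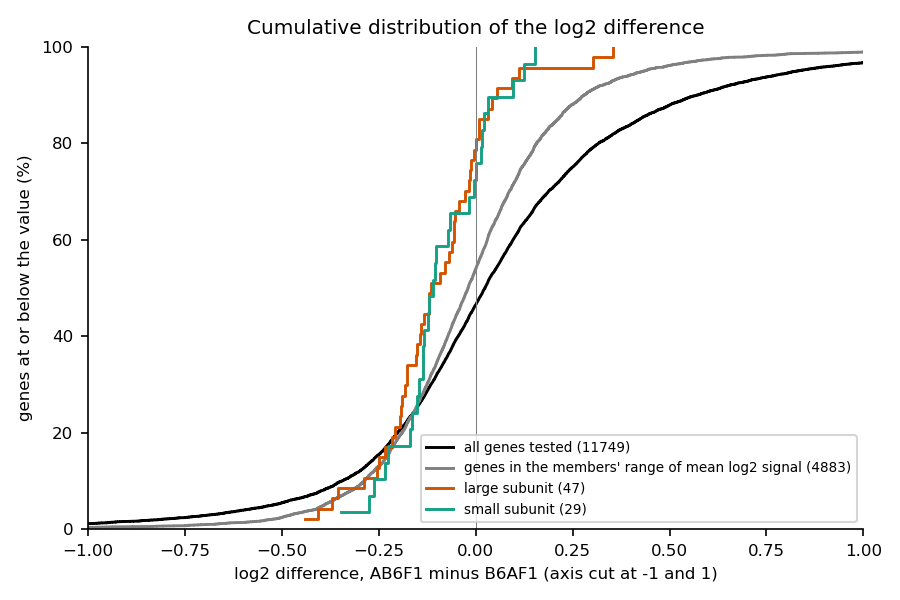
Cumulative percentage of genes (vertical axis) against the log2 difference AB6F1 minus B6AF1 (horizontal axis, cut at -1 and 1), as lines for large-subunit genes (47), small-subunit genes (29), the 4883 genes tested within the members' range of mean log2 signal and all 11749 genes tested. From the medians upward both subunit lines lie to the left of the others, with medians of -0.11 in each subunit and 0.02 over all genes, while toward the left end the lines cross.

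The 4 arrays separated the crosses for a part of the members, in a share near that of all genes tested, but mostly in 1 direction. In 28 members (36.8%) both AB6F1 arrays lay below both B6AF1 arrays, where 18.7% of all genes tested and 24.6% of those in the members' signal range did so. In 5 members (6.58%) both AB6F1 arrays lay above, where 22.5% of all genes tested and 18.4% of those in the signal range did so. The arrays of the other 43 members overlapped, as did those of 6908 of the 11749 genes tested and 2784 of the 4883 in the signal range. At an unadjusted p under 0.05 in limma, 6 of the 76 members were lower and 1 was higher in AB6F1, beside 3.88% and 5.84% of all genes tested. Of the 4883 genes in the members' signal range, 295 were lower and 256 higher at this limma p. Averaged over the members, after centring each gene on its mean over the 4 arrays, the log2 signal was -0.05 and -0.04 in the 2 AB6F1 arrays and 0.05 and 0.05 in the 2 B6AF1 arrays.

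**Figure D2:**
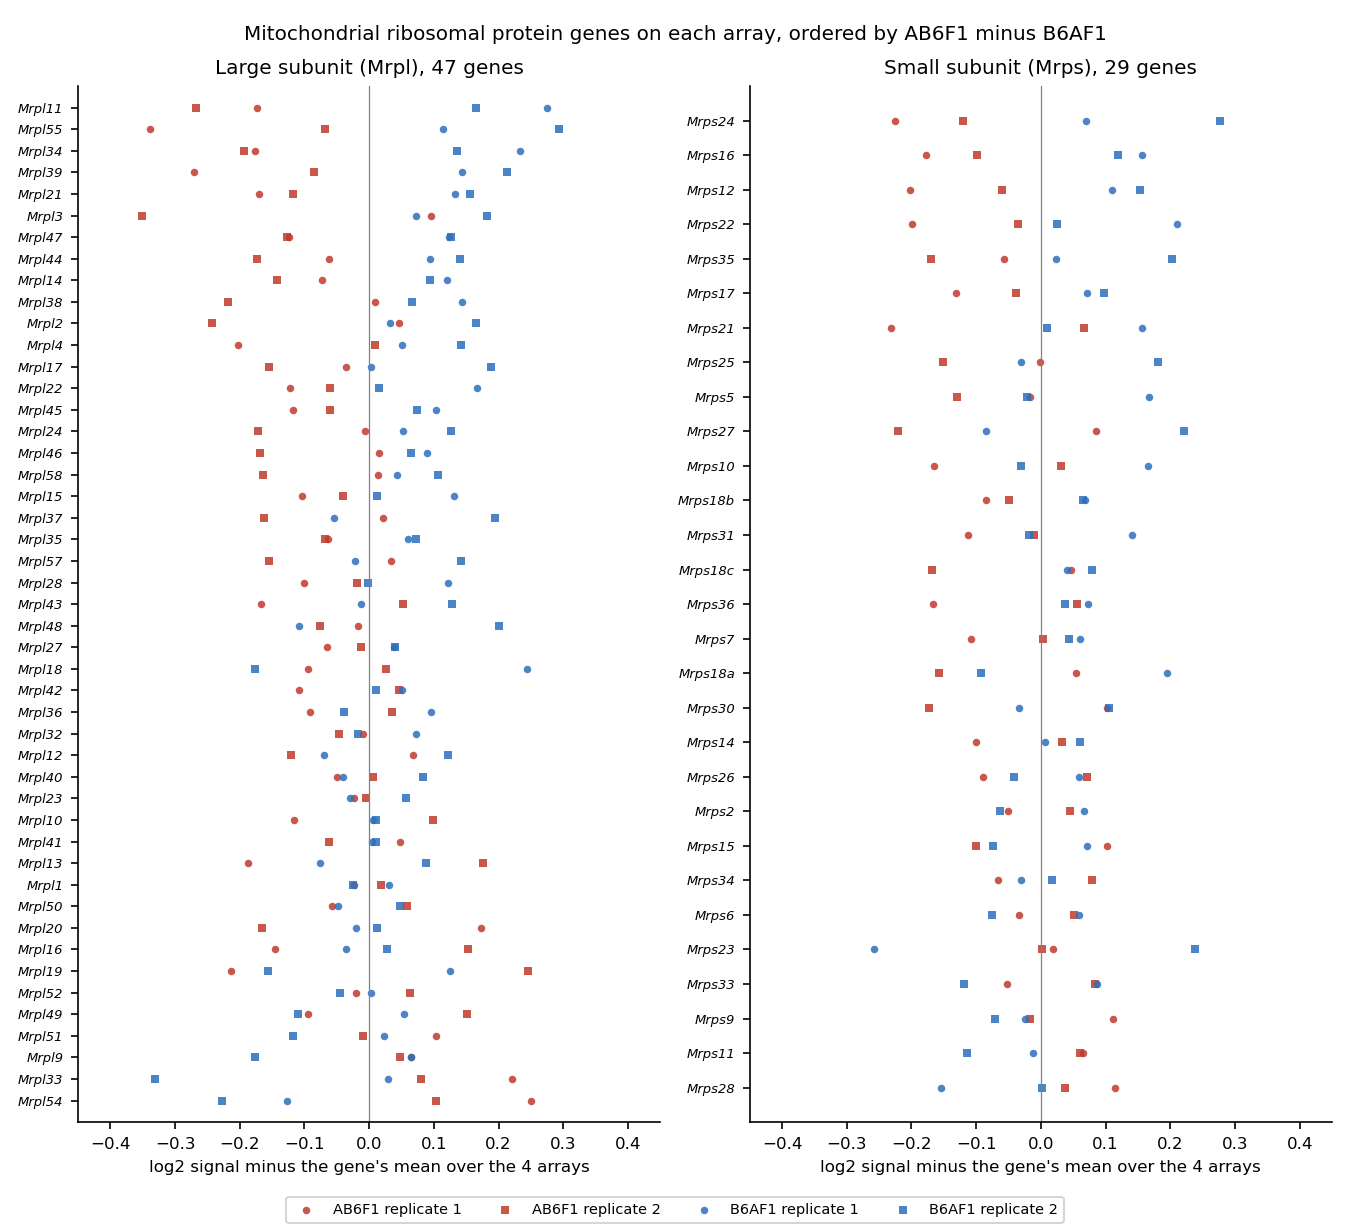
Each of the 76 members (rows) in each of the 4 arrays (points), as log2 signal minus the gene's mean over the arrays, with genes of the large and small subunit in separate panels, ordered by the difference AB6F1 minus B6AF1. In 28 members, mostly in the upper rows, both AB6F1 points lie to the left of both B6AF1 points, and in 5 members they lie to the right.

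The differences were small beside the precision of the arrays. The median standard deviation between mice of a cross was 0.09 on the log2 scale for the members and 0.19 for all genes tested. For genes in the members' signal range it was 0.13. The difference exceeded its own standard error in 31 members, of which 28 were lower and 3 higher in AB6F1. In 59 members it was under 0.2 in size. The median half-width of the members' 95% intervals was 0.31, so that a difference the size of the members' median could not be resolved for a single gene.

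The 2 subunits had the same median difference to 2 decimals. The 47 large-subunit genes had a median difference of -0.11 with 37 lower and 10 higher, and the 29 small-subunit genes a median of -0.11 with 21 lower and 8 higher. AB6F1 arrays lay below without overlap in 20 large-subunit genes (42.6%) and 8 small-subunit genes (27.6%), and above in 2 (4.26%) and 3 (10.3%). Beside these stand 18.7% below and 22.5% above for all genes tested, and 24.6% and 18.4% for genes in the members' signal range, so that the small-subunit share below was near that of genes of like signal. The mean of the large-subunit genes minus that of the small-subunit genes, centred over the arrays, was 0.00 and -0.01 in AB6F1 mice against 0.00 and 0.01 in B6AF1 mice. The difference between the crosses in this measure was -0.01, with no p-value given for a score over chosen genes. Symbols do not always give the place of a protein: Mrps30 and Mrps18a sit in the large subunit, and Mrps36 is now known as a subunit of the alpha-ketoglutarate dehydrogenase complex. With those 2 moved and Mrps36 left out, the medians were -0.10 for 49 large-subunit genes and -0.12 for 26 small-subunit genes. By symbol, but without probe sets of suffix _x_at, _s_at and _a_at, the medians were -0.08 (large) and -0.12 (small). With the mean over all probe sets of a gene, the large minus small measure differed between the crosses by 0.02, in place of -0.01.

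**Figure D3:**
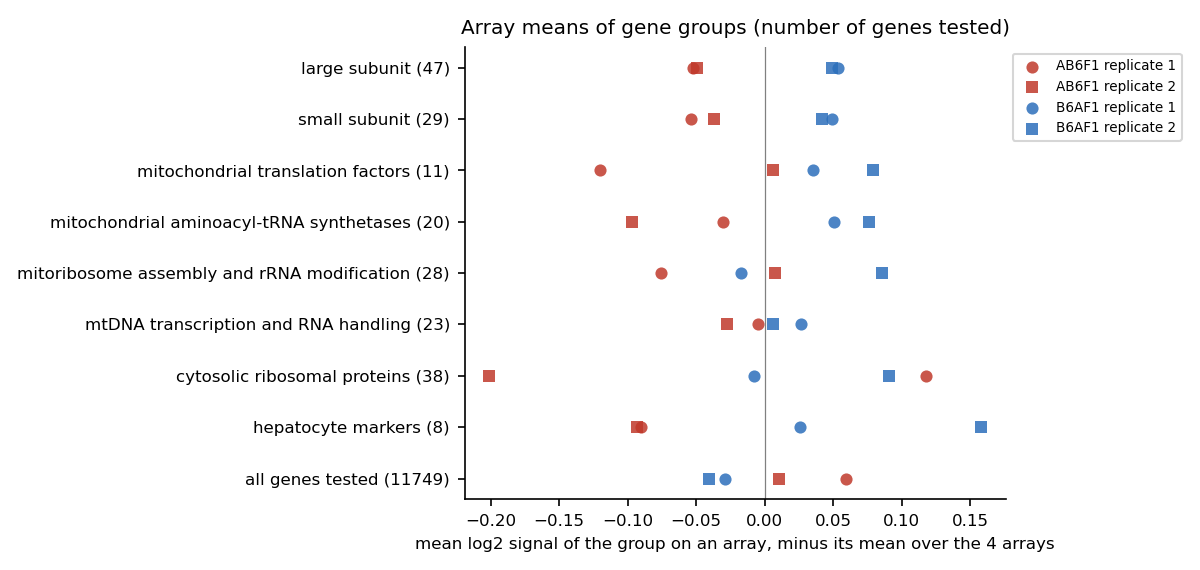
Mean log2 signal of a gene group on each of the 4 arrays (points), minus its mean over the arrays, for the members, the other mitochondrial lists, cytosolic ribosomal proteins, hepatocyte markers and all genes tested (rows, with the number of genes). The means of both mitochondrial subunits are negative in both AB6F1 arrays and positive in both B6AF1 arrays, as are those of the hepatocyte markers, whereas the cytosolic genes range from -0.20 in AB6F1 replicate 2 to 0.12 in AB6F1 replicate 1.

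A split into proteins listed as conserved in bacteria or as specific to mitochondria gave medians in the same narrow range. Large-subunit proteins listed as conserved (29 genes) had a median of -0.12 with 24 lower, and those listed as specific (18 genes) a median of -0.10 with 13 lower. In the small subunit the 16 genes listed as conserved had a median of -0.11 with 11 lower. The 10 listed as specific had a median of -0.13 with 7 lower. The lists are not a strict split by bacterial relative: Mrps18b, which shares a bacterial ancestor with Mrps18c, was counted as specific. None of these genes passed the test in limma.

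Among large-subunit genes, Mrpl11 had the most negative difference. Its protein forms the base of the stalk, the site where the elongation factors that hydrolyse GTP dock. The signal was 1095.5 and 1026.8 in AB6F1 mice against 1495.6 and 1385.2 in B6AF1 mice. Both AB6F1 mice thus lay below both B6AF1 mice, and the difference was -0.44 ± 0.14 (SE, n = 2 per cross; limma adjusted p = 0.384), a ratio of 0.737. Its 95% interval ran from -0.76 to -0.12. The result rests in part on the probe set: 2 further Mrpl11 probe sets above the filter gave -0.18 and 0.17. The other stalk proteins stayed near 0. Mrpl10, which anchors the stalk, read 2212.3 and 2564.9 in AB6F1 mice against 2406.9 and 2415.2 in B6AF1 mice, a difference of -0.02 ± 0.13 with a 95% interval from -0.33 to 0.29. Mrpl12, the mobile stalk protein that has also been found bound to the mitochondrial RNA polymerase, read 5594.5 and 4910.9 against 5089.0 and 5812.5. Its arrays overlapped, and the difference was -0.05 ± 0.13 with an interval from -0.36 to 0.26.

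Mrpl55, a large-subunit protein, read 766.2 and 924.7 in AB6F1 mice against 1048.4 and 1187.1 in B6AF1 mice. The crosses did not overlap, and the difference was -0.41 ± 0.16 (limma adjusted p = 0.486). Mrpl34, a small basic protein with a bacterial counterpart, read 1381.1 and 1366.0 against 1835.7 and 1715.2. The AB6F1 mice nearly coincided here, below both B6AF1 mice, with a difference of -0.37 ± 0.13 (limma adjusted p = 0.431). Mrpl39, a mitochondria-specific protein related in sequence to threonyl-tRNA synthetase, read 8143.2 and 9265.1 in AB6F1 mice against 10852.8 and 11389.1 in B6AF1 mice. The groups did not overlap, and the difference was -0.36 ± 0.12 (limma adjusted p = 0.426). A separate Mrpl39 probe set gave -0.23 with the same separation of the arrays. Mrpl21 read 1318.5 and 1368.2 against 1626.6 and 1654.0, again without overlap, a difference of -0.29 ± 0.13 (limma adjusted p = 0.526). Its second probe set above the filter, with signals from 69.8 to 92.9, gave 0.13.

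The large-subunit genes on the other side were few. Mrpl54, a mitochondria-specific protein, read 1105.1 and 998.6 in AB6F1 mice against 851.3 and 793.7 in B6AF1 mice. Both AB6F1 mice lay above both B6AF1 mice, and the difference was 0.35 ± 0.15 (limma adjusted p = 0.501), a ratio of 1.28. Mrpl33, a small protein with a bacterial counterpart, read 1094.5 and 992.4 against 958.2 and 746.0, a difference of 0.30 ± 0.17 (limma adjusted p = 0.623). The gap between the B6AF1 mice was larger than that between the nearest mice of the 2 crosses. For Mrpl9 the signal was 2761.1 and 2728.6 in AB6F1 mice against 2761.7 and 2336.8 in B6AF1 mice, and Mrpl51 read 7850.3 and 7266.6 against 7428.9 and 6739.9. The arrays of both genes overlapped, with differences of 0.11 ± 0.13 and 0.09 ± 0.12. The sign for Mrpl9 rests on the probe set: its further probe sets above the filter gave -0.19 and -0.28.

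The arrays of Mrpl19, Mrpl42 and Mrpl3 overlapped between the crosses, whereas those of Mrpl58 did not. Mrpl19 read 646.7 and 888.2 in AB6F1 mice against 817.3 and 672.4 in B6AF1 mice (0.03 ± 0.21), and Mrpl42 read 5095.6 and 5670.7 against 5686.2 and 5530.0 (-0.06 ± 0.12). Mrpl3, near the peptidyl transferase centre, read 815.1 and 598.3 against 801.9 and 865.8. Its difference of -0.25 ± 0.19 came with overlapping arrays, AB6F1 replicate 1 lying above B6AF1 replicate 1. Mrpl58, also called Ict1, is a large-subunit protein that can release peptides from stalled ribosomes. It read 2424.0 and 2143.9 against 2474.4 and 2586.6, with both AB6F1 mice lower and a difference of -0.15 ± 0.13.

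In the small subunit, Mrps24 had the most negative difference. It is the counterpart of the bacterial protein at the entry of the messenger RNA channel. The signal was 3655.2 and 3929.0 in AB6F1 mice against 4484.3 and 5175.3 in B6AF1 mice. The crosses did not overlap, with a difference of -0.35 ± 0.13 (limma adjusted p = 0.46), but a second probe set, with overlapping arrays, gave -0.04. Mrps16, also conserved in bacteria, read 3173.9 and 3352.7 against 4001.6 and 3899.6. Here too the AB6F1 mice lay below, by -0.28 ± 0.11 (limma adjusted p = 0.502).

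Mrps12, which forms part of the decoding centre where codons are matched, read 1979.0 and 2183.3 in AB6F1 mice against 2455.4 and 2530.6 in B6AF1 mice. The 2 crosses did not overlap, and the difference was -0.26 ± 0.12 (limma adjusted p = 0.551). Mrps7 and Mrps9 belong to the head of the subunit and differed in sign: Mrps7 read 2668.3 and 2881.5 against 2999.9 and 2962.9 (-0.10 ± 0.12), and Mrps9 read 842.8 and 771.0 against 766.5 and 742.9 (0.10 ± 0.15). Neither overlapped between the crosses, though the nearest Mrps9 signals, 771.0 and 766.5, were almost equal. Mrps22, a mitochondria-specific protein, read 1881.6 and 2108.9 against 2498.9 and 2197.7, a difference of -0.23 ± 0.14 (limma adjusted p = 0.629).

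Mrps28 had the most positive difference of the small-subunit genes. It read 2246.4 and 2129.8 in AB6F1 mice against 1863.5 and 2077.0 in B6AF1 mice, so that the AB6F1 mice lay above, by 0.15 ± 0.13 (limma adjusted p = 0.74). Mrps11, of the platform of the subunit, read 825.7 and 822.3 against 782.6 and 728.9 and also did not overlap, with a difference of 0.13 ± 0.15. Mrps33 read 2380.8 and 2615.5 against 2622.3 and 2273.8, which overlapped, with a difference of 0.03 ± 0.13.

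**Figure D4:**
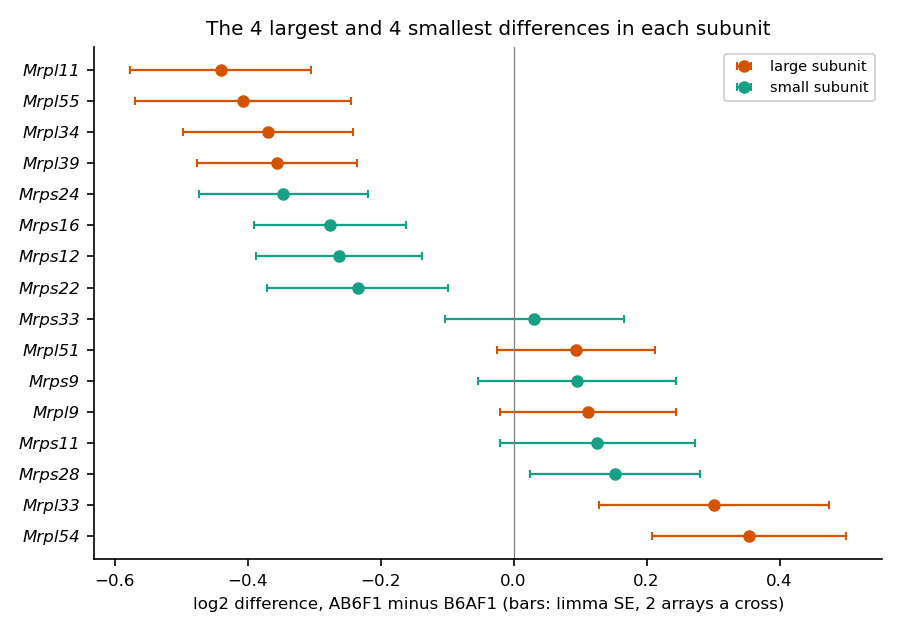
Log2 difference AB6F1 minus B6AF1 (points) with the limma standard error (bars; 2 arrays per cross) for the 4 members with the largest and the 4 with the smallest difference in each subunit. The values run from -0.44 for Mrpl11 to 0.35 for Mrpl54, and the bars of Mrpl51, Mrpl9, Mrps9, Mrps11 and Mrps33 cross 0.

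The differences of the other named small-subunit genes were under 0.2 in size. Mrps14 read 3781.6 and 4144.9 in AB6F1 mice against 4072.2 and 4226.0 in B6AF1 mice (-0.07 ± 0.12), Mrps34 read 3612.7 and 3994.8 against 3700.1 and 3826.5 (0.01 ± 0.12), and both overlapped. Mrps23 read 666.4 and 658.9 against 550.0 and 776.0, so that the AB6F1 mice lay inside the range of the B6AF1 mice. Mrps27 read 628.2 and 507.6 against 557.9 and 689.7, a difference of -0.14 ± 0.20. The 3 paralogs Mrps18a, Mrps18b and Mrps18c arose from 1 bacterial protein and occupy different places in the ribosome. Mrps18b read 2117.5 and 2169.9 against 2354.7 and 2348.1, without overlap (-0.13 ± 0.12). Mrps18a, with 1673.0 and 1445.5 against 1845.4 and 1511.1 (-0.10 ± 0.16), and Mrps18c, with 3051.3 and 2629.9 against 3039.1 and 3121.9 (-0.12 ± 0.13), overlapped. Mrps30 read 1218.4 and 1006.4 against 1108.5 and 1220.5, and Mrps36 read 1447.6 and 1690.7 against 1709.7 and 1669.1. Their differences were -0.07 ± 0.16 and -0.11 ± 0.14, again with overlap.

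Several members have more than 1 probe set, which gives a second reading of the same RNA. Of the 76 genes, 34 had 1 probe set and 42 had several. Among 56 further probe sets above the filter in 32 genes, 34 differences were negative and 22 positive, with a median of -0.05, and 35 shared the sign of the gene's representative. Mrpl15 shows the spread: its representative read 3879.0 and 4052.3 in AB6F1 against 4565.4 and 4205.0 in B6AF1 (-0.14 ± 0.12), and its other probe sets above the filter gave -0.09, 0.08, -0.14, 0.07 and 0.29. A probe set of Mrpl3 with signals from 70.9 to 160.8 gave 0.20 where its representative gave -0.25. When all probe sets above the filter were fitted separately, 0 of the 132 of these genes passed and 92 had a negative difference.

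The proteins of the mitochondrial ribosome that carry other names gave values in the same range. Their list also held the insertase Oxa1l, which is counted again among the assembly genes below. Of the 5 measured, Oxa1l included, 4 were negative, with a median of -0.26, and none passed in limma (smallest adjusted p 0.49). Chchd1, a small-subunit protein, read 2842.1 and 3271.2 in AB6F1 mice against 3756.2 and 3807.7 in B6AF1 mice, a difference of -0.31 ± 0.13. Gadd45gip1, a large-subunit protein at the exit tunnel, read 1694.3 and 1605.2 against 1983.2 and 1953.4, a difference of -0.26 ± 0.12. In both genes the AB6F1 mice lay below the B6AF1 mice. Oxa1l, the insertase that receives new peptides at the inner membrane, gave -0.27 ± 0.19 (0.02 with the mean of its probe sets), Dap3 gave -0.09 ± 0.13, and Ptcd3 gave 0.15 ± 0.22.

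The machinery around the ribosome was read from lists of known genes, and no gene of it passed in limma. Of 11 translation factors, 9 were negative, with a median of -0.14. Mtfmt, which formylates the initiator methionyl-tRNA, read 418.4 and 488.9 in AB6F1 mice against 627.3 and 575.6 in B6AF1 mice, a difference of -0.41 ± 0.18. Tsfm and Gfm1, both elongation factors, gave -0.27 ± 0.19 and 0.11 ± 0.17, and the release factor Mtrf1l gave 0.20 ± 0.21. Of 20 aminoacyl-tRNA synthetases and related amidotransferase subunits, 14 were negative, with a median of -0.13. Nars2, which charges asparagine tRNA, read 630.1 and 606.5 against 754.1 and 875.5, a difference of -0.39 ± 0.16. Pars2, for proline, gave -0.99 ± 0.61, from 171.1 and 47.3 against 211.4 and 150.2, which overlap. The amidotransferase genes Qrsl1 and Gatb gave 0.23 ± 0.17 and 0.18 ± 0.23, and neither sign held: with the mean of a gene's probe sets they were -0.18 and -0.44, and without suffixed probe sets Qrsl1 was -0.59. Leaving out AB6F1 replicate 2 or B6AF1 replicate 1 also turned Gatb, to -0.06 and -0.03.

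Among 28 genes of ribosome assembly and RNA modification, 17 were negative, with a median of -0.08 (smallest adjusted p in limma 0.357). That gene was Mtg2, a GTPase of late large-subunit assembly, with 778.1 and 802.2 in AB6F1 mice against 1061.8 and 1182.9 in B6AF1 mice, a difference of -0.50 ± 0.14 without overlap. Mrm1, which methylates the large ribosomal RNA, gave -0.50 ± 0.50 from overlapping arrays, and its sign rests on 1 mouse: leaving out AB6F1 replicate 1 turned the difference to 0.11, and leaving out the other AB6F1 mouse gave -1.11. Trmt61b and Mettl15, both RNA methyltransferases, gave 0.33 ± 0.27 and 0.31 ± 0.17. Of 23 genes of mitochondrial DNA transcription and RNA handling, 13 were negative, and the median of -0.02 lay near that of all genes tested. Polg2, the accessory subunit of the mitochondrial DNA polymerase, gave -0.51 ± 0.22, and the helicase Twnk gave 0.30 ± 0.19. Fastkd1 and Prorp gave -0.20 ± 0.16 and 0.17 ± 0.20.

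Transcripts of the mitochondrial genome were searched only as ND5 or as symbols starting with mt-. Of these, only ND5, a subunit of complex I, was found. It read 41851.4 and 39941.3 in AB6F1 mice against 39015.1 and 48317.9 in B6AF1 mice. The AB6F1 mice lay between the B6AF1 mice, and the difference was -0.09 ± 0.14 (limma adjusted p = 0.868).

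The ribosomal proteins of the cytosol served as a comparison. Only genes with a singly annotated probe set entered, 39 in all. Of the 38 tested, 25 were negative and 13 positive, with a median of -0.06, and none passed in limma. AB6F1 lay below without overlap in 4 of these genes (10.5%) and above in 1 (2.63%), beside 18.7% and 22.5% of all genes tested, and 33 overlapped. Of the genes without overlap, Rpl14, Rps25 and Rps27 (below) and Rpl12 (above) had signals of only 55.1 to 546.5. Rpl19, also below, read from 17633.4 to 19957.7. Their centred mean was 0.12 and -0.20 in the 2 AB6F1 arrays and -0.01 and 0.09 in the 2 B6AF1 arrays, so that the AB6F1 mice stood on either side of both B6AF1 mice. The difference between the 2 lists was not tested.

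The slices hold all cells of the liver, and in bulk RNA fewer cells of a type and less RNA per cell cannot be told apart. The summed signal of 8 hepatocyte markers was 297360 and 280660 in AB6F1 mice against 302140 and 339600 in B6AF1 mice, and 7 of the 8 were negative, with a median of -0.14. All 10 macrophage markers tested were positive, with a median of 0.72 and a summed signal of 17348 and 10913 against 7212 and 10078. Marco, the remaining macrophage marker, was below the filter, with signals from 9.8 to 45.1. Of 8 markers of stellate cells and fibroblasts, 7 were positive, with a median of 0.75 and a sum of 13566 and 16611 against 10468 and 9985, and Col3a1 and Col1a2 passed the test in limma. Endothelial markers summed to 4016 and 3644 against 3216 and 4172, with 4 of 6 tested positive. Markers of lymphocytes summed to 343.7 and 326.6 against 296.6 and 266.1, and those of cholangiocytes to 380.6 and 398.3 against 290.6 and 305.4. Both AB6F1 slices thus had lower hepatocyte sums and higher macrophage and stellate sums than both B6AF1 slices.

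The direction of the members' median held when any 1 of the 4 mice was left out, with medians from -0.10 to -0.09 and 52 to 60 of 76 members negative. Of the 76 members, 36 were negative and 3 (Mrpl33, Mrpl54 and Mrps28) positive in every setting that could be compared, and 37 had either sign. Up to 15 settings were compared, and 14 for members whose probe sets all carry a suffix _x_at, _s_at or _a_at. Settings that changed only the filter, the test or the replicate block could not alter a member's difference, so they add nothing on its sign. No member passed the test in any setting.

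**Figure D5:**
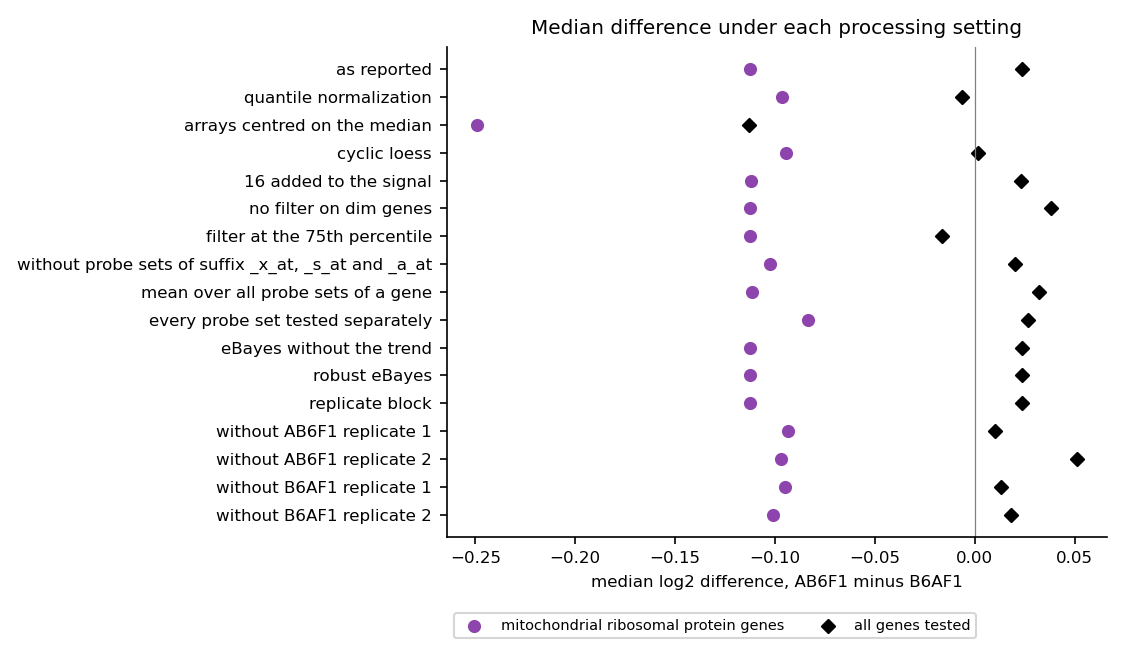
Median log2 difference AB6F1 minus B6AF1 (horizontal axis) of the members (circles) and of all genes tested (diamonds) under each processing setting (rows). The members' median is below that of all genes in every setting shown, and centring on the median moves both down, to -0.25 and -0.11.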

How the data were processed

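Liver RNA of 4 mice was hybridised as biotin-labelled cRNA, 1 array per mouse, per the labels' protocols. The authors deposited linear signal intensities computed with MAS5, per the submitters' processing notes; in the values, the trimmed mean of each array is 500. No detection calls were used here. Symbols were taken from the platform annotation (34945 of 45101 probe sets had 1 symbol, 932 several, 9160 none; 64 were controls) and updated through gene IDs to RefSeq, which changed no member's symbol. Signals were log2-transformed without a pseudocount. Per gene the probe set of highest mean was kept, and genes with a mean log2 signal of at least 5.93, the median of all non-control probe sets, were tested.

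AB6F1 and B6AF1 were compared in limma 3.58.1 (R 4.3.3; lmFit, eBayes with a trend), two-sided, with Benjamini-Hochberg adjustment over 11749 genes. The script was checked on simulated data. Exact tests of single values cannot pass 0.05 with 2 against 2. Named members were those with the 4 largest and 4 smallest differences and the 3 highest and 3 lowest signals per subunit, the members of small structural lists, and up to 4 whose probe sets differ in sign; in the other lists, the 2 largest and 2 smallest differences. The members and lists were chosen with earlier results of these data known. The members' choice did not use their difference between the crosses. Promoters came from RefSeq, and an 8-letter NRF1 core was used in place of a longer form after seeing the data; the longer form was in 12 members (17.9%) and 10.4% of genes tested. Alternatives varied the scaling, filter, probe set, test and mice.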

Additional observations from a re-analysis of the deposited data

How the results depend on the processing

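The members' median stayed negative in every setting. Centring each array on its median moved it to -0.2494 (large subunit -0.2514, small subunit -0.2474). This rescaling moved all genes alike, and the members' median minus that of all genes tested stayed at -0.1366. Limma called 25 genes in all as deposited, 49 after centring, 46 at an adjusted p of 0.1, 9 with the mean of a gene's probe sets, and 0 without the intensity trend (1044 genes at an unadjusted p under 0.05). Leaving out 1 mouse gave 1 to 242 calls: 79 without AB6F1 replicate 1, 242 without AB6F1 replicate 2, and 1 without either B6AF1 mouse, with the lone mouse assumed to vary like the other cross. None of these calls was a member. With every probe set tested, 92 of 132 were negative.

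The replicate numbers do not pair the mice: deviations of same-numbered mice correlated at -0.03 over 11749 genes. A fit with the number as a block called 62 genes and no member.

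Of the alternatives for named genes, 826 kept their direction. These include settings of only the filter, the test or the replicate block, which cannot change a difference. Another 47 changed sign where the reported difference was within its own standard error of 0, and 8 where it was larger. Those 8 follow. Leaving out 1 mouse, Mrm1 ranged from -1.114 to 0.1076, the latter without AB6F1 replicate 1. Without suffixed probe sets, Mrpl15 was 0.29, Mrpl21 0.13 and Qrsl1 -0.59. With the mean of probe sets, they were 0.28, 0.12 and -0.18, and Oxa1l was 0.02032. The causes were not tested. With 2 arrays per cross, the signal over background and the spread between mice limit single genes, so that differences the size of the members' median cannot be resolved for any gene alone.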

Other observations

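The 4 probe sets that pair a member with a second gene entered no comparison. The main probe set of Gm6238 and Mrpl30 read 7487.0 and 6594.0 in AB6F1 and 7102.3 and 7183.6 in B6AF1, a difference of -0.02 ± 0.12 with overlapping arrays. A second one of that pair, with signals from 205.6 to 827.3, gave 0.73 ± 0.50. The probe set of Nme3 and Mrps34 read 1040.4 and 861.5 against 1174.8 and 1099.5, without overlap, a difference of -0.26 ± 0.16, where the probe set of Mrps34 alone gave 0.01 ± 0.12. The probe set of Ccdc142 and Mrpl53, a protein of the stalk region, read 3394.3 and 2799.2 against 2907.2 and 3848.8, a difference of -0.12 ± 0.18. None passed in limma.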
